A study of Rattus norvegicus with 9 samples.

Results

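The transcriptome of rat hippocampus under control conditions was described from the 3 arrays labelled as exposed to artificial cerebrospinal fluid alone. They were chosen by their titles and are 3 of the 9 arrays of the study. The other 6 arrays carry RNA after ketone bodies, 3 after 1 h and 3 after 6 h, and apart from a count of shared highest genes they were not compared with the control. The labels call the source brain, hippocampus, and the RNA that of hippocampal neurons. They give no strain, age, sex, exposure time of the control or way of isolating cells, and do not say that the 3 arrays come from separate animals or cultures. Every SD below therefore measures the spread between 3 arrays, which may be technical.

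The hippocampus is a cortical structure in which granule cells of the dentate gyrus project to pyramidal cells of field CA3, which in turn project to field CA1. Its pyramidal and granule cells release glutamate, and a smaller and varied population of interneurons releases GABA. Fast transmission runs through AMPA, NMDA and GABA-A receptors, whose subunits set kinetics, ion selectivity and drug sensitivity. Astrocytes clear glutamate and potassium, oligodendrocytes make myelin, and microglia are the resident immune cells.

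Expression was measured as the linear signal of each probe set, a group of short probes against 1 transcript. Each gene was represented by its probe set with the highest mean over the control arrays, which gave 14217 genes. The number of arrays limits the precision, since no counts lie behind a signal. Probe sets differ in how well they bind, so an order of signals is not an order of transcript numbers. Signal where a gene should be silent was read from 59 genes typical of liver, muscle, pancreas, gonads and other organs, called off-tissue genes below. The 90th percentile of their signals was 62.0 on control array 1, 49.3 on control array 2 and 70.9 on control array 3. A gene counts as above the off-tissue limit where its signal exceeded that value on 3 of 3 arrays, as did 7914 of 14217 genes (55.7%). The median signal over all genes was 98.3, against 6.74 for the off-tissue genes.

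The 3 arrays resembled each other closely. Spearman correlations of the signal between arrays, across genes, ran from 0.984 to 0.988; genes are not independent replicates, so this is a description. The median probe set signal was 39.9, 42.0 and 42.7 on control arrays 1, 2 and 3. As a sign of RNA integrity, the 3′ probe set of beta-actin exceeded its 5′ probe set by 1.37, 1.27 and 1.42 log2, and for Gapdh the same difference was 0.13, 0.02 and 0.24.

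COX2, a mitochondrially encoded subunit of cytochrome c oxidase, led with 7549, 8612 and 8429.7 on control arrays 1, 2 and 3 (mean 8197 ± 569, SD, n = 3 arrays, as for every mean below). Its sister subunit COX1, at rank 3, gave 6733, 6933 and 7413. Array 1 had the lowest value of both. Between them stood Zwint, which encodes a protein known to bind SNAP25, with 6917, 7779 and 7548 and array 1 again lowest.

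Among genes with known roles in neurons in the 30 with the highest signal, Snap25, a membrane-fusion protein of the presynaptic terminal, reached 5454, 6224 and 6389. Of the genes named here only Snap25 is on the list of neuronal markers, so no neuronal share of the 30 is read from them. Calm2, 1 of the calmodulin genes, reached 5413, 6553 and 6063. Olfm1, a secreted protein of neurons, averaged 5135 ± 357, and the neuronal calcium sensor Vsnl1 averaged 4865 ± 337. The peptide-processing carboxypeptidase Cpe averaged 5896 ± 271, and the amyloid precursor gene App 5144 ± 376. Ndrg4 (4980.5 ± 52.2), the reticulon Rtn1 (4802 ± 282) and the signalling subunit Gnas (4932 ± 402) were also among them. Array 1 was lowest for Snap25, Calm2 and Olfm1 and highest for Vsnl1.

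Genes known from glia were also among the 30. Mbp, the myelin basic protein, gave 5568, 6724 and 6010.2, with array 2 highest. Sparcl1, a matricellular protein made by astrocytes, gave 6266, 6670.0 and 6740.3, and the lipid carrier Apoe averaged 5061 ± 333. S100b, a calcium-binding protein of astrocytes, averaged 4701 ± 258, the oligodendrocyte tight-junction protein Cldn11 4628 ± 189, and the membrane glycoprotein Gpm6b 4724 ± 383. Sparcl1, Apoe and Gpm6b are not on the glial marker lists. Nor are the protease inhibitor Cst3, which averaged 5946 ± 177, and Itm2b, a membrane protein that can be cleaved to short peptides, with 4714 ± 281.

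The remaining genes of the 30 serve all cells, and some genes named above, such as Calm2 and Gnas, are not limited to neurons either. Ribosomal proteins were represented by Rps29 (6224 ± 598), Rps23 (5141 ± 423) and Rpl26 (5086 ± 317). The cytoskeleton was represented by the actin-sequestering thymosin Tmsb4x (6588 ± 201), the actin Actg1 (5548 ± 268) and the tubulin Tubb2a (4982 ± 269). Energy metabolism and ion pumping were represented by the sodium pump subunit Atp1b1 (5808 ± 151), the aldolase Aldoa (5754 ± 50.6), the malate dehydrogenase Mdh1 (4683 ± 159) and the nuclear cytochrome c oxidase subunit Cox4i1 (4554 ± 168). The boundary was narrow, since Cox4i1 at rank 30 had 4554 and the prion protein gene Prnp at rank 31 had 4547.

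The list holds only genes with a probe set listed for them alone, and other probe sets of some of them, such as Apoe, Gnas, Mbp and Actg1, read far lower. A further 11 probe sets listed with several near-identical genes had a mean signal above that of Cox4i1, among them alpha-globin Hba-a1 and Hba-a2 (6164 ± 206), Ppia and its copies (5901 ± 452) and Tuba1a, Tuba1b and Tuba1c together (5617 ± 465). So did 15 probe sets without a gene name, up to 9517. In the 6 ketone body arrays 29 of the 30 genes were again among the 30 highest. The 30 genes held 3.77, 4.07 and 4.06% of the summed gene signal on arrays 1, 2 and 3, and the top 10% of genes held 55.6, 55.7 and 55.7%. Of the 100 genes with the highest signal, among 14217 in all, 8 encode ribosomal proteins and 11 encode nuclear subunits of oxidative phosphorylation. By the symbol patterns used, 47 and 95 genes of these groups were measured, and the 95 can include genes that are not subunits. Both groups were chosen after the values were seen.

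**Figure D1:**
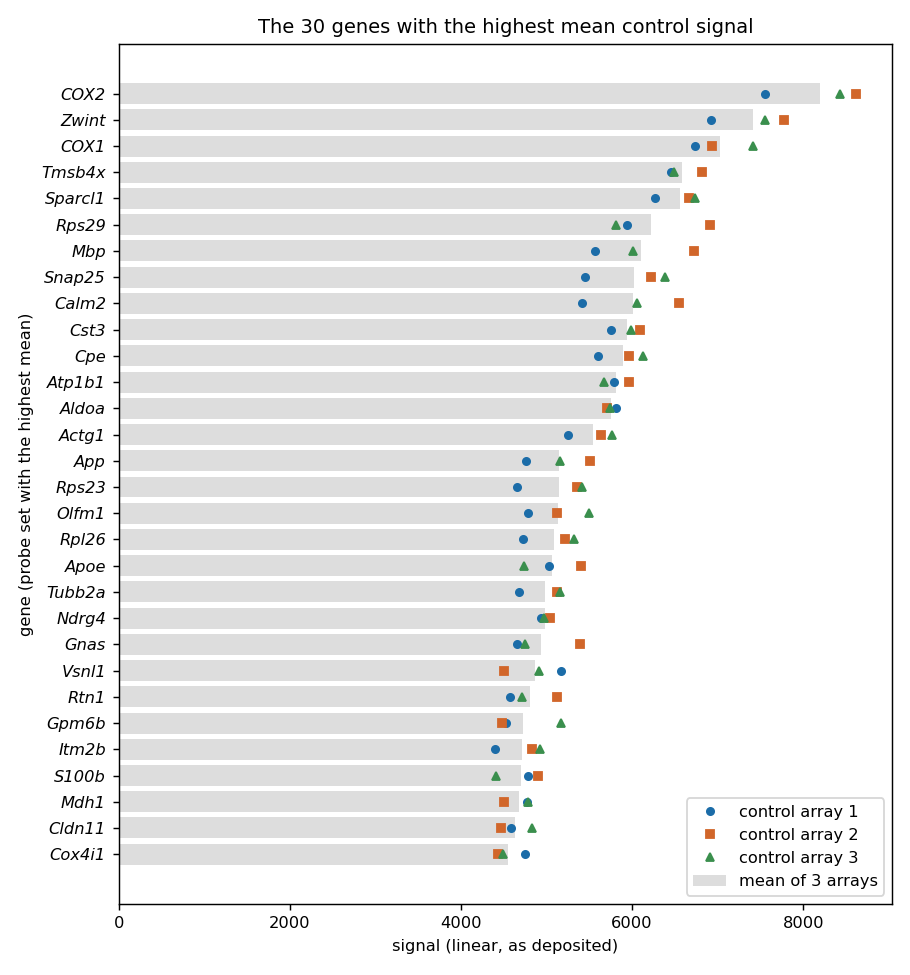
Horizontal bars give the mean linear signal over 3 control arrays of the 30 genes with the highest mean, and points the signal on each array. COX2 stands first with a mean of 8197 and Cox4i1 last with 4554, and the 3 points of each gene lie within a narrow part of the axis.

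Markers of neurons as a class were above the limit in 15 of 15 cases, against 55.7% of all genes, with a median signal of 2524. After Snap25 came Stmn2, a microtubule regulator of growing axons (3373, 3767 and 3492), the surface protein Thy1 (3258, 3084 and 3169) and the dendritic protein Map2 (3427, 2524 and 3154). Array 2 was lowest for Map2 and highest for Stmn2, so no array was low for neuronal markers in general. The neuronal enolase Eno2 averaged 2927 ± 253. The lowest of the list were the vesicle calcium sensor Syt1 (679.9 ± 132) and the RNA-binding protein Elavl3 (349 ± 25.6), both still far above the limit.

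Of 10 excitatory markers 9 were above it. Neurogranin (Nrgn), a calmodulin-binding protein of dendritic spines, gave 4189, 4557 and 4292, and the vesicular glutamate transporter Slc17a7 gave 2286, 2690.2 and 2034. The kinase Camk2a averaged 1630.3 ± 41.4, and the transcription factors Neurod6 and Neurod1 averaged 1292 ± 89.2 and 555 ± 56.4. The patterning factor Emx1, with 81.3, 77.8 and 50.4, fell below the limit on array 3 alone, and Tbr1 averaged 82.99 ± 21.00.

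Of 13 inhibitory markers 11 were above it. The peptide Cck led with 3089, 3097 and 2644, followed by the GABA-synthesising enzyme Gad1 with 1925, 1915 and 2253. The interneuron peptides Npy (1232, 1489 and 1268) and Sst (1120.5, 1091 and 1188) came next, and the secreted protein Reln averaged 673 ± 67.8. Array 3 was lowest for Cck and highest for Gad1 and Sst. Erbb4, a neuregulin receptor of interneurons, had 2.02, 7.77 and 9.63, and the homeobox gene Dlx5 had 33.4, 31.8 and 35.1, both under the limit on each array.

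The RNA did not come from neurons alone by these markers, although the labels name neurons. All 14 astrocyte markers and all 12 oligodendrocyte markers measured were above the limit, against 55.7% of all genes. Summed over the list, astrocyte markers gave 26603, 26252 and 25155 on arrays 1, 2 and 3, and oligodendrocyte markers 25752, 26064 and 25394, beside 35286, 34245 and 35090 for markers of neurons. In such bulk RNA, fewer cells of a type and less RNA per cell cannot be told apart, and sums over different probe sets give no cell shares.

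Astrocyte genes after S100b were the gap-junction protein Gja1 (3959, 3747 and 4209), the water channel Aqp4 (3452, 3038 and 3495), the aldolase Aldoc (3127, 3440.3 and 2967) and the glutamate transporter Slc1a3 (3092, 2822 and 2663). The ends of the list were Aldh1l1, a folate enzyme often used as a pan-astrocyte marker (149 ± 37.7), and Slc1a2. Slc1a2 encodes the main astrocytic glutamate transporter of forebrain, yet its probe sets gave only 106 and 47.3 on average. Its higher probe set read 99.9, 120.2 and 98.1, above the limit on each array.

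Oligodendrocyte genes after Mbp and Cldn11 were the myelin proteins Mobp (3843, 3657 and 3822) and Cnp (3723, 3385 and 3465), and Mal averaged 1958 ± 163. Aspa (241 ± 16.2) and the transcription factor Sox10 (206 ± 26.7) had the lowest signals of the list. Oligodendrocyte precursors were seen through Olig1 (1741, 1516 and 1754), Bcas1 (1066 ± 83.5) and the growth factor receptor Pdgfra (447 ± 37.9). Of 8 precursor markers 6 were above the limit, and Olig2 (51.6 ± 6.12) and the proteoglycan Cspg4 (19.1 ± 6.69) were not.

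Other cell types were seen through a few genes each. Of 14 microglial markers 8 were above the limit, which is near the share of all genes: the protease Ctss (1963, 1952 and 2090.0), the purine receptor P2ry12 (395, 335 and 444), the complement genes C1qa (324 ± 24.5) and C1qb (202 ± 13.1), and Csf1r (222 ± 22.6) led. Trem2 (19.7 ± 6.49) and Ptprc (21.3 ± 6.21) were not above it. Ctss alone held more signal than the rest of the list, and the median of the list was 110.0, against 98.3 for all genes.

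Of 11 endothelial markers 5 were above the limit, led by the tight-junction protein Cldn5 (446, 444 and 408) and the glucose carrier Slc2a1 (343, 345 and 359), with Pecam1 at 23.2 ± 0.526. Mural cell markers had 3 of 10 above, up to 105 ± 21.9 for Rgs5. Meningeal and fibroblast markers had 8 of 10 above, and the share over all genes was 55.7%. The prostaglandin synthase Ptgds, also made by oligodendrocytes, gave 3014, 2852 and 2575, and the fibrillar collagen Col3a1 averaged 173 ± 7.16.

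The choroid plexus marker Ttr, a thyroid hormone carrier, gave 4284, 4531 and 4373 and stood at rank 33 of 14217. Its signal differed little between arrays. Enpp2 of the same list gave 1214, 1268 and 1632, with array 3 highest, while the klotho gene Kl (2.92 ± 2.00) and the homeobox gene Otx2 (13.1 ± 1.09) of that list were near the off-tissue median, and 4 of 10 were above. Beta-globin Hbb of red blood cells gave 3152, 3489 and 2686, with array 3 lowest. Of 4 measured red blood cell markers 2 were above, Hbb and the heme synthesis enzyme Alas2 (92.2 ± 10.2), while the anion exchanger Slc4a1 (22.7 ± 14.1) and the embryonic globin Hbe1 (4.01 ± 3.66) were not. Of 8 leukocyte markers only Lyz2, which microglia also express, was above (683 ± 36.3), while the T-cell genes Cd3e (16.5 ± 1.83) and Cd3d (1.29 ± 0.527) were not.

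Genes of progenitors and immature neurons had 6 of 13 above, against 55.7% of all genes. Tubb2b (1401 ± 38.05) and Sox2 (799.6 ± 46.04), which mature cells also express, led. The cell-cycle gene Mki67 (12.7 ± 3.71) and Eomes (7.35 ± 3.58) were under the limit on each array. Dcx, the microtubule protein of migrating young neurons, gave 78.9, 111 and 107, above the limit on each array.

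**Figure D2:**
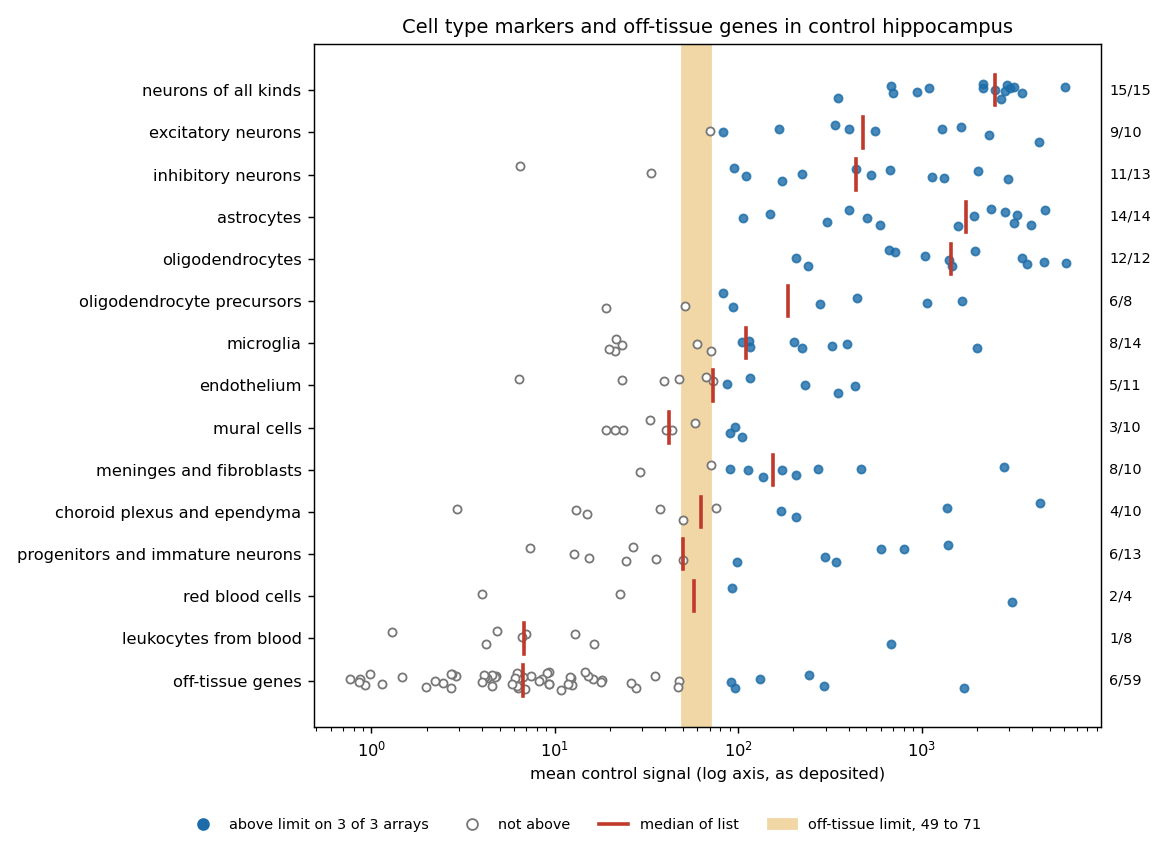
Each point is 1 gene at its mean control signal on a log axis, by marker list, filled where it was above the off-tissue limit on 3 of 3 arrays. Red lines are list medians, the shaded band spans the limits of the 3 arrays, and counts at the right give genes above of genes measured, from 15/15 for neurons to 6/59 for off-tissue genes.

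Markers of the hippocampal fields were read against the 55.7% of all genes above the limit. CA1 genes were above the limit in 5 of 6 cases, among them Ccn3 (1032, 1206 and 1091), Mpped1 (950.4, 1113 and 1044) and Wfs1 (260.1, 308 and 220.1). Of the CA2 genes, 4 of 5 were above, with Pcp4, a calmodulin-binding peptide that granule cells also make, at 3611, 3887 and 3771 and the signalling regulator Rgs14 at 245, 219.9 and 214. CA3 and mossy cell genes gave 5 of 6, led by Bok (373 ± 14.3) and Cpne4 (321 ± 15.9). Dentate genes gave 3 of 5: the calcium buffer Calb1 (1289.6, 1397 and 1255), Stxbp6 (809.5, 999 and 901) and the granule cell factor Prox1 (286, 294 and 315), while Dsp (12.9 ± 3.76) and Tdo2 (2.43 ± 2.17) were near off-tissue signals. The dentate count is near the share of all genes, the lists are short, and signals of different probe sets do not rank the fields.

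Genes used for other brain regions were read against the same 55.7% of all genes above the limit. These lists are short too, so the counts describe the listed genes and not the regions. Of 6 markers of monoamine nuclei 0 were above, with Ddc highest at 39.5 ± 7.63 and the noradrenaline transporter Slc6a2 at 4.31 ± 4.60. Of 8 hypothalamic markers 1 was above, the peptide Cartpt (255, 252 and 257), and oxytocin (Oxt) had 2.61 ± 0.116. The cerebellum had 2 of 8 above, Car8 (106 ± 15.9) and Cbln1 (104 ± 2.22), and the granule cell receptor subunit Gabra6 had 15.98 ± 2.91. The thalamic list was above in 7 of 7 cases, from Lef1 at 71.8 ± 0.37 to Slc17a6 at 338 ± 17.5, and the striatal list in 6 of 8, led by Penk (621 ± 96.04) and Ppp1r1b (479 ± 48.7). Several genes of these last lists, such as Calb2, Rora and Penk, are also made in hippocampal interneurons or pyramidal cells, and the part of neighbouring tissue was not tested.

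Of the 59 off-tissue genes 6 were above the limit, which their own 90th percentile fixes in number. The fast skeletal myosin Myh1 stood far apart with 1790.1, 1382 and 1963, and the mean signals of its 5 probe sets ran from 193 to 1712. The others were the pancreatic lipase Pnlip (306, 297 and 282), the skeletal actin Acta1 (243 ± 37.8), albumin (Alb, 131 ± 24.4), the keratin Krt10 (95.7 ± 11.4) and Loricrin (91.5 ± 19.6). Of the other fast myosins of the list, Myh2 gave 52.5, 44.4 and 46.3 and Myh4 gave 1.35, 11.9 and 5.40. Both were below the limit on each array.

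Glutamate receptors and their auxiliary subunits were above the limit in 17 of 29 cases (58.6%), close to the 55.7% of all genes, but unevenly by family. All 4 AMPA receptor subunits were above. Gria2, the subunit that makes the channel impermeable to calcium, gave 1516, 1665 and 1688, and Gria3 gave 1353, 1166 and 1412. Gria1 gave 270.0, 327 and 334 and Gria4 234, 235 and 293. Gria2 was highest on 3 of 3 arrays, by 0.31 log2 over Gria3. Of the auxiliary TARP subunits, which carry AMPA receptors to the synapse, Cacng3 (538 ± 30.4) and Cacng2 (274 ± 32.02) were above, while Cacng8, Cacng7, Cacng4 and Cacng5 lay between 14.1 and 39.3.

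The NMDA receptor list had 4 of 7 above. Grin1, the subunit that every NMDA receptor contains, gave 691, 659 and 575, with array 3 lowest. Grin2a, of mature synapses, ran the other way with 238, 401 and 568. These come from the highest of its 3 probe sets, whose median was 28.8. Grin2b, the subunit of younger and extrasynaptic receptors, gave 68.5, 83.1 and 134, again with array 1 lowest and array 3 highest. Grin2c averaged 165 ± 23.3, and Grin2d, Grin3a and Grin3b lay between 12.6 and 28.9. Kainate receptors had 3 of 5 above, all low: Grik5 (171 ± 28.7), Grik2 (105 ± 6.28) and Grik4 (99.3 ± 9.66), while Grik1 had 52.5 ± 4.51 and Grik3 3.42 ± 3.23.

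Metabotropic receptors were led by Grm3, a receptor of terminals and astrocytes that lowers cyclic AMP, with 337, 569.8 and 693. Grm5, which couples to phospholipase C, gave 69.3, 131 and 230.5. Both were lowest on array 1 and highest on array 3. Grm2 (104 ± 22.7) and Grm7 (101 ± 8.78) were also above, Grm8 (60.7, 108 and 141) missed the limit on array 1, Grm4 averaged 74.4 ± 19.5 and Grm6 17.4 ± 10.3. The median log2 SD of the metabotropic receptors above the limit was 0.40, against 0.12 for all genes above it.

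Receptors for GABA and glycine were above the limit in 11 of 19 cases (57.9%), close to the 55.7% of all genes. Gabra5, an alpha subunit of extrasynaptic receptors that is prominent in hippocampus, gave 1126, 1056 and 1144, ahead of Gabra2 (433, 524 and 593) and Gabra4 (187 ± 27.5). Gabra3 averaged 50.1 ± 12.2 and did not pass on each array. The order covers only the members analysed here. The beta subunits Gabrb2 (1388, 1429.7 and 1416) and Gabrb1 (1047, 1158 and 1033) were both above. The other probe set of Gabrb2 averaged 84.9, so their order rests on the probe set chosen.

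Gabrd, the delta subunit of tonic inhibition in granule cells, averaged 409 ± 27.97 and Gabrg1 176 ± 18.8, while Gabrg3, Gabrq, Gabre and Gabrp lay between 4.02 and 20.1. Both obligate partners of the GABA-B receptor had high signals, Gabbr1 with 1959.7, 1747 and 1846 and Gabbr2 with 1355, 1444 and 1631. Gabbr1 was higher on each array by these probe sets, but by median and by lowest probe sets Gabbr2 led. Among glycine receptor genes, the beta subunit Glrb, which anchors the receptor at the synapse, gave 1626, 1452 and 1710.3 and the alpha subunit Glra2 208, 198 and 193, while Glra1 and Glra3 had 4.88 each.

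Receptors for acetylcholine, serotonin, dopamine and noradrenaline had 7 of 44 above the limit (15.9%, against 55.7% of all genes). Of 12 nicotinic subunits 0 were above, from Chrnb3 at 0.458 ± 0.105 to Chrna4 at 59.9 ± 10.8; Chrna7, the subunit of the fast calcium-permeable receptor, had 21.3, 35.7 and 47.3. Of the muscarinic receptors only Chrm3 was above (126, 161 and 110.0), and Chrm1, the main postsynaptic muscarinic receptor of pyramidal cells, had 33.9, 37.4 and 44.4. Receptors known from hippocampus are thus among those below, and a low signal is the reading of a probe set and does not show that the transcript is absent.

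The serotonin receptor Htr2c, which choroid plexus also makes in quantity, gave 779, 513 and 683, lowest on array 2. The part of choroid plexus in this signal was not tested. Htr5b was also above (116 ± 10.7). Htr1a, the inhibitory receptor of pyramidal cells, gave 83.6, 99.6 and 53.9 and missed the limit on array 3. Drd1 was above (138, 108 and 108) and Drd2 was not (60.2, 51.2 and 67.7). The adrenergic receptors Adra1d (238, 215 and 177), Adra2a (110.3 ± 24.7) and Adra1b (105 ± 10.2) were above, with Adrb1 at 30.8 ± 2.62.

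Among other receptors, the cannabinoid receptor Cnr1, a presynaptic brake on release, gave 1486, 1523 and 1666, and its immune relative Cnr2 gave 1.54, 2.95 and 0.584. The BDNF receptor Ntrk2 averaged 1373 ± 57.4 and the sorting receptor Sort1 1222 ± 41.5, with Ntrk3 at 56.8 ± 7.90 and Ngfr at 8.27 ± 5.89. The glucocorticoid receptor Nr3c1 gave 439, 293 and 375 and the mineralocorticoid receptor Nr3c2 329, 325 and 349. These overlap, with Nr3c1 higher on 2 of 3 arrays. Estrogen receptors were near the bottom of the list, Esr1 at 1.95 ± 0.913 and Esr2 at 0.504 ± 0.187. The adenosine receptor Adora1 averaged 169.7 ± 17.99 and the nociceptin receptor Oprl1 103 ± 19.4, while the opioid receptors Oprm1 (5.87 ± 3.48), Oprd1 (7.05 ± 2.92) and Oprk1 (23.3 ± 12.4) were not above.

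**Figure D3:**
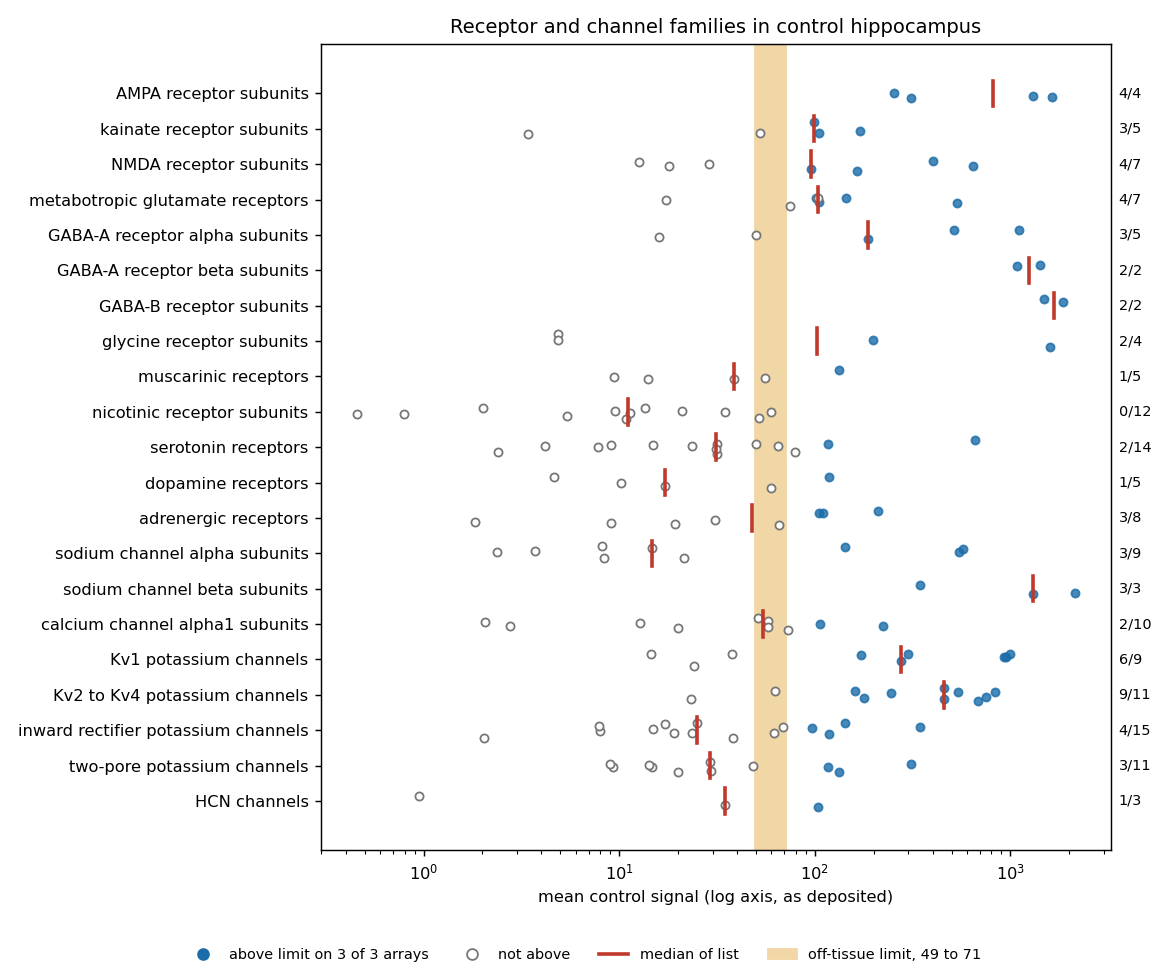
Mean control signal of each measured member of 21 receptor and channel families on a log axis, drawn as in the plot of marker lists, with family medians in red and genes above the off-tissue limit counted at the right. AMPA receptor subunits (4/4) lie right of the shaded limit, and nicotinic receptor subunits (0/12) do not.

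Sodium channel genes were above the limit in 6 of 12 cases (50%), near the 55.7% of all genes. The pore subunits Scn2a and Scn1a overlapped between arrays, with 488, 543 and 691 and 525, 552 and 556, and Scn2a was the higher on 1 of 3 arrays. Scn3a, known from the developing brain, gave 106, 145 and 178. Scn8a, the channel of the axon initial segment, had only 21.5 ± 5.81, and the channels of muscle and sensory neurons Scn4a, Scn9a, Scn10a and Scn11a lay between 2.37 and 14.7. The accessory subunits gave more signal: Scn3b 2079, 2113 and 2211, Scn2b 1480.4, 1213 and 1231 and Scn4b 365, 337 and 332.

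Calcium channel genes were above in 8 of 16 cases (50%), also near the 55.7% of all genes. The N-type pore subunit Cacna1b gave 242, 215 and 214 and the L-type subunit Cacna1c 115, 96.5 and 107. The other 8 pore subunits were not above on each array, including Cacna1a of the P/Q type with 57.5 ± 9.06 over its highest of 5 probe sets. Of the accessory subunits, Cacna2d3 (891, 869 and 1002), Cacna2d1 (685, 722 and 776) and Cacnb3 (486, 410.3 and 417) were highest.

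Potassium and HCN channel genes were above in 28 of 64 cases (43.8%), against 55.7% of all genes. The highest were Kcna2, a delayed rectifier of axons (1168, 909.7 and 914), and the beta subunits Kcnab1 (983, 772 and 1109) and Kcnab2 (1000.1, 857 and 908). These overlap between arrays. Kcna1, the partner of Kcna2 in axons, gave 205, 303 and 391. The fast-spiking channel Kcnc2 gave 829.6, 778 and 882 and Kcnc1 426, 458 and 492. The A-type channel of dendrites Kcnd2 gave 641, 627 and 773, and its partners Kcnip4 (754 ± 35.6), Kcnip2 (538 ± 26.04) and Kcnip3 (457 ± 70.5) followed.

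Of the slower and background channels, Kcnq5 of the M-current gave 651, 693 and 809.9, against 37.2, 67.7 and 67.1 for Kcnq3. Kcnma1, the large-conductance calcium-activated channel, averaged 389 ± 19.7, and its neuronal beta subunit Kcnmb4 597 ± 1.81. Inward rectifiers had 4 of 15 above: Kcnj6 (331, 375 and 323), Kcnj4 (143 ± 6.68), Kcnj11 (118 ± 5.32) and Kcnj3 (96.6 ± 23.9). Kcnj10, the potassium channel of astrocytes, had 23.3, 16.3 and 35.6, under the limit on each array although every astrocyte marker measured was above. Tandem-pore channels had 3 of 11 above, led by Kcnk2 (309.7 ± 4.23), and of HCN channels only Hcn2 was above (80.6, 123 and 108).

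Genes of vesicle release were above in 18 of 26 cases (69.2%), against 55.7% of all genes. Besides Snap25, the vesicle SNARE Vamp2 gave 1677, 1660.4 and 1237, Vamp1 953, 896 and 878 and the plasma membrane SNARE Stx1a 909, 842 and 708. Complexin genes, which clamp fusion, differed widely: Cplx1 gave 2996, 3268 and 3335 and Cplx2 139.7, 306 and 387. Synapsins, which hold vesicles in the reserve pool, ran from Syn1 (2141, 2242 and 2081) over Syn2 (949, 913 and 915) to Syn3 (11.7 ± 2.65). Of 13 synaptotagmins 6 were above, with Syt4 (1393, 1214 and 1462) ahead of Syt1 (530.0, 729.9 and 780.0) on each array and Syt2 (10.8 ± 6.68) and Syt7 (10.5 ± 9.64) low. By median probe sets Syt4 still led, and by lowest probe sets Syt1 did.

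Kinases and scaffolds of the postsynaptic side were broadly present. The CaM kinase II genes ranked Camk2b (3136, 2992 and 3233), Camk2a (1636, 1668 and 1586), Camk2d (1215, 1223 and 1301) and Camk2g (517, 612 and 572), in the same order on each array. The Camk2a probe sets ran from 34.8 to 1630.3, so this order rests on the probe sets chosen. Protein kinase C was led by Prkcb (3265, 3163 and 3472), and Prkce (359, 616 and 688) varied most, with array 1 lowest. Prkca had 70.1 ± 16.01. Of the scaffolds that anchor receptors, Dlg1 (698 ± 59.3), Dlg3 (350.1 ± 52.6) and Dlg4 (306 ± 31.6) were above and Dlg2 (63.5 ± 10.1) was not.

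Transporters set the ionic and transmitter gradients. The chloride exporter Slc12a5, which makes GABA inhibitory in mature neurons, gave 1678, 1829.6 and 1512, against 981, 1010.1 and 931 for the chloride importer Slc12a2. The order held on each array. Of the vesicular transporters, Slc17a7 was followed by Slc17a6 (358, 329 and 326) and the GABA transporter Slc32a1 (238, 223 and 204). The neuronal glutamate transporter Slc1a1 gave 718, 670.1 and 610.3, below Slc1a3. Sodium pump subunits followed Atp1b1 with Atp1b2 (1616 ± 144) and Atp1b3 (752 ± 107), and the plasma membrane GABA transporters Slc6a13 (29.1 ± 2.18) and Slc6a11 (11.2 ± 4.92) were not above the limit.

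Of 17 glycolytic and creatine kinase genes 12 were above (70.6%), against 55.7% of all genes. The 5 that were not, Hk2, Eno3, Ldhc, Ckm and Ckmt2, are isoforms known from muscle or testis, although Pfkm, the muscle phosphofructokinase, was above. Hexokinase Hk1 gave 1005, 841 and 739 and Hk2 8.59, 18.4 and 14.01. Phosphofructokinase Pfkp gave 2529, 2372 and 2319, Pfkm 1642, 1701 and 1386 and Pfkl 285, 247 and 220.1. The enolases Eno1 (3071 ± 106) and Eno2 overlapped between arrays, with Eno3 of muscle at 23.3 ± 7.72.

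Lactate dehydrogenase Ldhb, whose tetramer favours lactate use, gave 4169, 3845 and 3557, Ldha 2368, 2442 and 1894 and the testis form Ldhc 6.24, 9.44 and 6.09. The creatine kinases of brain, Ckb (2677, 2789 and 1965) and mitochondrial Ckmt1 (1289.8, 1394 and 1138), stood against the muscle forms Ckm (4.56 ± 2.15) and Ckmt2 (4.15 ± 2.47). Of glucose carriers, the neuronal Slc2a3 (478 ± 38.1) and the vascular Slc2a1 (349 ± 8.68) were above, and Slc2a4 (15.2 ± 4.18) and the liver form Slc2a2 (0.879 ± 0.313) were not.

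Adaptor and cytoskeletal families were among the strongest. Of 7 genes of the 14-3-3 family, adaptors of phosphorylated proteins, 6 were above, from Ywhag (3526, 3150.4 and 3111) to Ywhab (4293, 4600.3 and 4503), and the epithelial form Sfn was not (23.3, 7.70 and 17.9). The stathmins, which destabilise microtubules, ran from Stmn4 (1283 ± 63.5) to Stmn1 (4077 ± 84.3), all 4 above. Of 8 beta tubulins 6 were above, with Tubb4b (2639 ± 279) and Tubb5 (2319 ± 236) next to Tubb2a, while Tubb6 (23.4 ± 2.88) and the platelet form Tubb1 (21.2 ± 2.48) were not. The lead of Ywhab over Ywhah was 0.13 log2 and that of Tubb2a over Tubb4b 0.91 log2.

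Connexins form gap junctions, and 3 of 8 were above. After Gja1 came Gjb6 (480.3, 516 and 519) and Gjb2 (160.5, 167 and 213), the other astrocytic connexins, while Gjb1 of oligodendrocytes (71.4, 87.8 and 66.7) missed the limit on array 3 and Gjd2 of neurons had 20.9 ± 5.02.

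Ketone bodies are burned by a short set of mitochondrial enzymes. Oxct1, which activates acetoacetate in mitochondria, gave 1535, 1499 and 1622. Acat1, the thiolase that follows it, gave 523, 544 and 494, and Bdh1, which oxidises hydroxybutyrate, 217, 251 and 218. The monocarboxylate carriers Slc16a1 (366, 320.4 and 364) and Slc16a7 (157, 214 and 208) were above the limit, and Slc16a3, a carrier of glycolytic cells, was not (13.9, 21.3 and 12.4). Of 8 measured genes of ketone body and lactate use 6 were above, against 55.7% of all genes, and nothing about the list is read from so few genes.

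Activity-regulated genes had substantial signal in tissue exposed only to artificial cerebrospinal fluid. Of 22 immediate early genes 20 were above the limit, against 55.7% of all genes. Egr1, a zinc-finger factor induced by synaptic activity, gave 2580.1, 2853 and 2553, and Fos gave 2255, 2016 and 2552, ranks 211 and 281 of 14217. Jund gave 1020.1, 1187 and 1497, the phosphatase Dusp1 1159, 1183 and 1220.1 and Jun 1197, 1109 and 915. Array 3 was highest for Fos, Jund and Dusp1 and lowest for Jun. The lowest probe sets averaged 2.72 for Fos, 6.91 for Jund, 190 for Dusp1 and 224 for Jun, and Egr1 has only 1. Egr3 (19.6 ± 2.82) and Fosl2 (24.2 ± 2.26) were under the limit on each array.

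Of 18 chemokine and cytokine genes 12 were above, not far from the 55.7% of all genes. The neuronal chemokine Cx3cl1 (1548, 1411 and 1228) and Cxcl12 (595, 566 and 591) led, followed by the microglial growth factor Il34 (279.8 ± 53.5), Ccl3 (246 ± 20.5) and Tnf (189.8 ± 9.61). Ccl5 (11.5 ± 3.90) and Il6 (7.59 ± 5.25) were not above. Sex-linked genes were present as Eif2s3y of the Y chromosome with 818, 452 and 755 and Xist, the noncoding RNA of the inactive X chromosome, with 7.29, 7.65 and 4.05; the former was lowest on array 2 and the latter was under the limit on each array.

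Neuropeptide and granin genes were above in 17 of 19 cases, against 55.7% of all genes. After Cck came the granin-like Pcsk1n (2277, 2526 and 1776), secretogranin Scg2 (1986, 1840.4 and 1901), chromogranin Chgb (1862, 1688 and 1521) and Npy. Array 3 was lowest for Cck, Pcsk1n and Chgb. The tachykinin Tac3 (69.5 ± 7.99) and galanin (Gal, 58.7 ± 22.97) were not above.

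Promoters of such peptide and activity-regulated genes are textbook sites of the cAMP response element TGACGTCA, to which CREB binds. The windows searched run from 250 bases before to 50 bases after each gene's start site in RefSeq (build GRCr8). The motif is its own reverse complement, so a match counts for both strands. It was found in 4 of 13 neuropeptide windows (30.8%) and 3 of 16 immediate early gene windows (18.8%). Of all measured genes with a window it was found in 335 of 11733 (2.86%), and in 525 of 27457 windows of the table (1.91%). Windows were matched for 13 of the 19 neuropeptide genes and 16 of the 22 immediate early genes.

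A match describes letters and not a bound site. The matching genes were Sst, Scg2, Vgf and Cartpt among the peptides and Jund, Ier2 and Dusp1 among the immediate early genes, and Vgf and Ier2 are named for the match, after their values were seen. Their control signals ranged from 255, 252 and 257 for Cartpt to 1986, 1840.4 and 1901 for Scg2, with Vgf, a granin-like peptide precursor, at 989.9, 771 and 777 and the early-response gene Ier2 at 304, 284 and 289. The stretches below show how the element, in capitals, sits from 150 bases before to 30 bases after the start site, 5′ to 3′ on the gene's strand.
Sst (chr11:90461396-90461575, plus strand): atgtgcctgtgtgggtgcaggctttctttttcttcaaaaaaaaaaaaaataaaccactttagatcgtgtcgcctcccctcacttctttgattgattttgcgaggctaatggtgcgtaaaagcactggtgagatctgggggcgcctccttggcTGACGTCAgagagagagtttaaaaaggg
Scg2 (chr9:88256837-88257016, minus strand): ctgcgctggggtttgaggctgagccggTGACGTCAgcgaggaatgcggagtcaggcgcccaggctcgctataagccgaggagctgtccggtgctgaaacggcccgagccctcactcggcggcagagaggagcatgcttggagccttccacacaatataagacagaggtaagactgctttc
Vgf (chr12:25276991-25277170, minus strand): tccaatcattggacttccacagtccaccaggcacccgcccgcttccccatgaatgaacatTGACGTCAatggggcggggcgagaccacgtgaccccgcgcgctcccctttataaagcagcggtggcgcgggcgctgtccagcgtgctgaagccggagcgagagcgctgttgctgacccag
Cartpt (chr2:32991206-32991385, minus strand): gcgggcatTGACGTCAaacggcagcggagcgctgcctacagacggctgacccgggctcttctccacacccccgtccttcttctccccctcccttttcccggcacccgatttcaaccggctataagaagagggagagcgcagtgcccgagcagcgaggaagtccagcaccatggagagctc
Ier2 (chr19:40399223-40399402, plus strand): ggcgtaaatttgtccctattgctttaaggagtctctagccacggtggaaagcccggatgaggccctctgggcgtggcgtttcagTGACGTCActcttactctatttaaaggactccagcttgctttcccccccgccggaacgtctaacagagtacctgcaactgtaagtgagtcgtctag
Dusp1 (chr10:17184703-17184882, plus strand): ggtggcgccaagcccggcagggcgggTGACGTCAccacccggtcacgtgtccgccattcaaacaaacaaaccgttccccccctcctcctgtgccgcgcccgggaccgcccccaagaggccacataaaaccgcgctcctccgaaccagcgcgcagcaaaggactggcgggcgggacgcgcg
In Sst the element begins at base 153 of the stretch and so just after the start site that the table gives, while in the other 5 genes it lies before it. The flanking letters differ between genes.

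Genes above and below the off-tissue limit differed in promoter composition, which the signal did not use. The ratio of observed to expected CG dinucleotides had a median of 0.80 over 6662 windows of genes above the limit, 0.53 over 5071 of genes not above and 0.24 over 50 of off-tissue genes. The 30 genes with the highest signal, of which 22 had a window, had a median of 0.73, between those groups. TATAAA on either strand was found in 6.29% of windows of genes above the limit, 11.3% of those not above and 24 of 50 (48%) of off-tissue genes. These are descriptions of gene sets with no test.

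Cox4i1 had the highest CG ratio of the 22 (1.18), with its CG dinucleotides in capitals in the line below. Beside it is Ins2, an insulin gene of the off-tissue list (signals 6.72, 1.62 and 4.10), whose window held 1 CG and whose TATAAA is in capitals.
Cox4i1 (chr19:65630233-65630412, plus strand): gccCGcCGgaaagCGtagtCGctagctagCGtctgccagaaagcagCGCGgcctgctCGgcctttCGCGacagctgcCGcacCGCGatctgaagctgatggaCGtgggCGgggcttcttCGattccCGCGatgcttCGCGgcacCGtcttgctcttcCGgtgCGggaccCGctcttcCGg
Ins2 (chr1:207273776-207273955, minus strand): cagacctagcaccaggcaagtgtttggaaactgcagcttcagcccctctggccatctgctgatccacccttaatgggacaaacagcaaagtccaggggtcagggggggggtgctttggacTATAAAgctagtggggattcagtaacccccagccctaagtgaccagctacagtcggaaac
The Cox4i1 stretch holds 25 CG dinucleotides and the Ins2 stretch 1. Low ratios also occur among the highest signals, with 0.15 for Apoe and 0.18 for Aldoa, so the difference between the sets does not hold for each gene.

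How far signals order the members of a family can be judged from the probe sets that read 1 gene. Among 3267 genes above the limit with more than 1 probe set, the highest and lowest probe set differed by a median of 2.10 on the log2(signal + 16) scale, a ratio of 4.28. In 10% of these genes the difference exceeded 4.38 log2, a ratio of 20.8. In 1951 of them (59.7%) the lowest probe set was not above the limit. The widest gaps were found for Apoe (8.21 log2, from 1.13 to 5061), Gnas (7.85), Ndrg2 (7.72), Pgk1 (7.70) and Slc6a17 (7.66), all among the genes with the highest signals.

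Against that scale few family leads were wide. Of 59 families with at least 2 measured members, the member with the highest mean led on 3 of 3 arrays in 55, so the array-to-array spread rarely changed the leader. The lead over the next member exceeded the median probe set gap in 9 families and its 90th percentile in 3. These 3 were the cannabinoid receptors (Cnr1 over Cnr2, 6.48 log2), the hexokinases (Hk1 over Hk2, 4.89 log2) and the actins (Actg1 over Acta1, 4.42 log2). The lead of Actg1 rests on one of its probe sets, since the other had 68.03, below Acta1 (243 ± 37.8), and Actb, listed only together with Actg1, is not in the order. The other 6 were alpha tubulins (Tuba4a over Tuba8), complexins (Cplx1 over Cplx2), connexins (Gja1 over Gjb6), glycine receptors (Glrb over Glra2), vesicular transporters (Slc17a7 over Slc17a6) and serotonin receptors (Htr2c over Htr5b). The tubulin order leaves out Tuba1a, Tuba1b and Tuba1c, whose shared probe set read higher than Tuba4a. By lowest probe sets the lead passed to Gjb6 among connexins, as it did by median probe sets, to Glra2 among glycine receptors and to Htr5b among serotonin receptors.

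In 23 of the 59 families the leader has 1 probe set, so another choice of probe set cannot lower it. In the other 36 the leader kept its place in 10 with the lowest probe set of each gene and in 24 with the median one. The lowest probe set of the leader exceeded the signal of the next member in 7 of these 36, led by Gria2, Oprl1, Cnr1, Atp1b1, Slc17a7, Cplx1 and Hk1. Gria2, for example, had a lowest probe set of 1554, above the 1310 of Gria3. Grin1 did not keep its lead by lowest probe sets: its lower probe set had 32.04, and Grin2c led. The lowest of the 3 Grin2a probe sets had 21.4, and by median probe sets Grin1 still led.

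**Figure D4:**
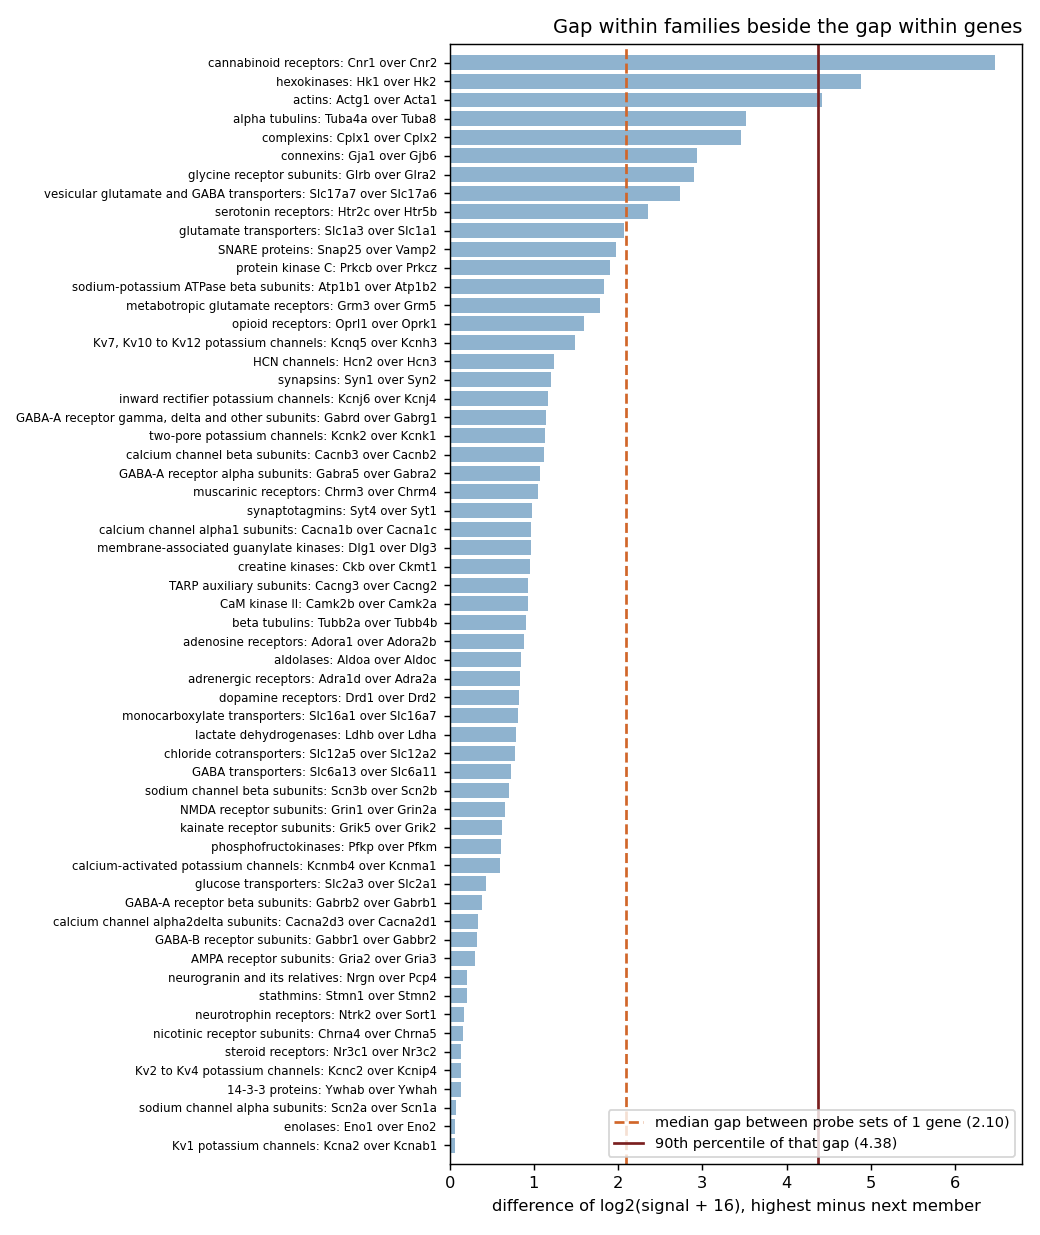
Bars give, for each of 59 families, the difference in log2(signal + 16) between the member with the highest mean control signal and the next. The dashed line marks the median difference between probe sets of 1 gene (2.10) and the solid line its 90th percentile (4.38), and 3 bars pass the solid line.

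Most genes varied little between the control arrays. The SD of log2(signal + 16) had a median of 0.12 among the 7914 genes above the limit and a 90th percentile of 0.25, and it exceeded 0.5 in 51 genes (0.644%). Cdh22, a cadherin of brain, varied most, with 103, 244 and 358 (SD 0.84 log2). Next were Pnma8b, with 70.9, 124 and 261 (SD 0.84), and Id2, an inhibitor of differentiation factors, with 645, 1204 and 1954 (SD 0.79). All 3 were lowest on array 1 and highest on array 3.

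The same order was common among the variable genes. Of the 51 genes, 36 (70.6%) were lowest on array 1 and highest on array 3, against 1104 of the 7914 genes above the limit (13.95%). Genes of synapses and signalling were among them: Grm5 (SD 0.77), Cplx2 (SD 0.72), Grin2a (SD 0.60) and Grm3 (SD 0.52). The splicing factor Rbfox2 gave 144, 244 and 373 and the chaperone Dnajb6 606, 774 and 1609.8, likewise. Ccnd2, a cyclin, was lowest on array 1 and highest on array 2, with 201, 505 and 438.

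In some of these genes the probe sets disagreed. Id2 has a further probe set that read 526, 577 and 534, and that of Cdh22 read 111, 85.8 and 97.2. Grm5 differed, since its lower probe set also had array 1 lowest and array 3 highest. Its values of 25.4, 36.8 and 54.4 were under the limit on each array. The second probe set of Strbp had the same order above the limit, with 111, 120 and 169. That of Pnma8b did not, with 52.7, 84.2 and 80.1, under the limit on array 1. Those of Ggact, Lpgat1, Rbfox2 and Ubn2 did not have this order either, but they were under the limit on each array, so nothing is read from their order. The 3′ to 5′ ratios of actin and Gapdh were highest on array 3 and lowest on array 2. Their part in these differences was not tested. Levels of the genes named here are thus less certain than the rest, and over 2 arrays the count with an SD over 0.5 was 50 without array 3, 90 without array 1 and 97 without array 2.

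**Figure D5:**
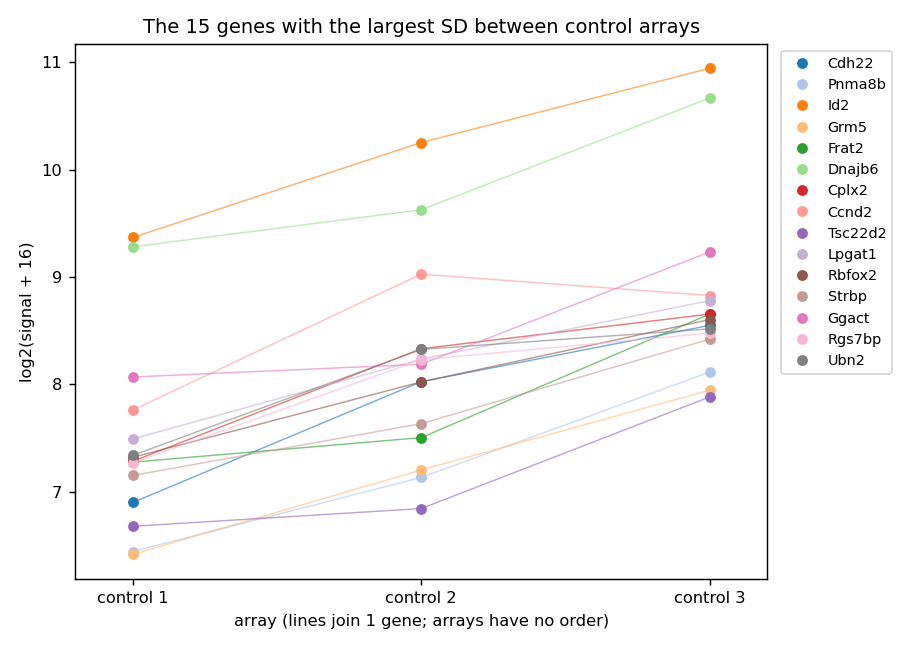
The log2(signal + 16) of the 15 genes with the largest SD between control arrays, with 1 colour per gene and lines that join the points of 1 gene. For 14 of them array 1 is lowest and array 3 highest; Ccnd2 is highest on array 2.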

How the data were processed

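The authors deposited 1 table of linear signal intensity for 31099 probe sets on 9 arrays, and it holds 0 values at or below 0. For the software, the sources used here give no name. Once 2% of probe sets at either end are trimmed, each control array has a mean signal of 150.05, so the arrays carry a common scale and were used as deposited. The deposited intensities have no measured background.

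The 57 control probe sets were left out. In the platform annotation, 20826 of 31042 others name 1 gene, 436 name several and 9780 name no gene; 20758 of those naming 1 gene matched a RefSeq rat gene by Entrez number and 68 did not. The probe set with the highest mean over the 3 control arrays stood for each gene, and log2 values carry a pseudocount of 16. SDs are over 3 arrays. No group was tested against another, and no p was computed.

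Members, gene lists and families were chosen with earlier results of these data known. Named are the 30 genes with the highest mean, and from each list up to 5 highest and 2 lowest members. Any family member and the off-tissue genes above the limit are also named. So are the 15 genes with the largest SD and the 5 with the widest probe set gap. Dcx, Vgf, Ier2, Myh2, Myh4, Ins2 and Prnp were named after their values were seen. The steps were tested on simulated data. Python 3.11.15, numpy 2.4.6, pandas 2.3.3, scipy 1.17.1 and matplotlib 3.10.9 were used. Alternatives covered normalization, pseudocount, the limit, which probe set stands for a gene, and the omission of each array.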

Additional observations from a re-analysis of the deposited data

How the results depend on the processing

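Of the 30 genes with the highest mean, 19 stayed in the list when each gene was read from its lowest probe set, and 22 when several-gene probe sets were included or the median probe set was used. With the limit at the highest off-tissue gene, which is Myh1, 353 genes were above instead of 7914; with the 75th and 95th percentile they were 10720 and 5359. With the lowest probe set 33 of 59 families kept their leader, of which 23 could not change because the leader has 1 probe set; of the other 36 families 10 kept it. Genes with an SD over 0.5 numbered 24 with a pseudocount of 64, 76 with a pseudocount of 1, 204 without the off-tissue limit, and 50 to 97 when 1 array was left out. Quantile normalization of the control arrays left 30 of the 30 genes, 7906 genes above the limit and 51 variable genes. Leaving out 1 array left 29 to 30 of the 30 genes and 7928 to 8401 genes above the limit. The cause of these changes was not tested beyond what each alternative itself sets. No paired analysis was possible because only 1 group was described. Signal over the off-tissue level limits statements on genes near it: with 3 arrays and 1 limit per array, a gene such as Emx1 changes side with a single reading.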
